A study of Mus musculus with 5 samples.

Results

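Complex I, or NADH dehydrogenase, is the entry point of the mitochondrial respiratory chain. It takes electrons from NADH, passes them along a flavin and a row of iron-sulfur clusters to ubiquinone, and pumps protons across the inner membrane. Its peripheral arm stands in the matrix and carries out the electron transfer, while its membrane arm pumps the protons. The catalytic core of the peripheral arm and all accessory subunits are encoded in the nucleus, and the core of the membrane arm is encoded in mitochondrial DNA. Proliferating fibroblasts draw much of their energy from glycolysis, whereas mature neurons depend on oxidative phosphorylation. The messenger RNAs described here are those of the nuclear subunits, found by gene symbols that begin with Ndufa, Ndufb, Ndufc, Ndufs, Ndufv or Ndufab followed by a number only, so that assembly factors (Ndufaf) stayed out. This gave 37 genes of the 27729 in the files, and all 37 reached 10 expected counts in at least 1 library, as did 13346 genes in all, which are called the genes kept. The 7 mitochondrially encoded subunits (mt-Nd genes) were not found among the named genes and were not analysed here.

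The RNA came from mouse embryonic fibroblasts (MEFs) of the ICR strain, made from mid-gestation embryos without head and internal organs, and weakly attached cells had been removed before plating. Day 0 was the culture in serum-containing MEF medium. The other 4 libraries came from cells kept for 2, 5, 10 and 14 days in a serum-free medium of small molecules and growth factors, which the study names 5C medium and the labels name 6C, and which contains DMEM/F12, N2 supplement, basic fibroblast growth factor, leukemia inhibitory factor (LIF), 2-mercaptoethanol and vitamin C. The labels' treatment text gives day 15 where the sample label gives day 14. Each time point had 1 library, so that no difference between days has a replicate check and no test was made. In mixed cultures, fewer cells of a type and less RNA per cell cannot be told apart.

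The libraries held 2253748 (day 2) to 3890334 (day 0) expected counts, and 3 counts, the smallest number read as detection, were worth between 0.771 and 1.33 per 1000000. The smallest member count was 69 (Ndufs1 on day 2). Counts were set on a common scale with TMM, and changes are log2 ratios to day 0 after adding 1. A row of 5 values runs from day 0 through days 2, 5 and 10 to day 14. Brackets give exact 95% intervals of a gene's ratio, which cover counting error only. The day 2 library stood apart, with the lowest total and with 4.79% of its counts on Gm42418, against 0.109% or less in the others. With scaling factors computed without it, 24, 36 and 33 members were over 2-fold below day 0 on days 5, 10 and 14, the same numbers as with it. The libraries also differed in the length of the genes that held their counts. The gene on which the median count fell was 1810, 1785, 2126, 2782 and 2467 bases long on day 0 and days 2, 5, 10 and 14. Members were short genes, with a median length of 674 bases and 34 of 37 within the shortest 2670 of the genes kept, while the median of all genes kept was 2525 bases. Each member was therefore also set against genes of equal length, meaning the other genes kept within 10% of its length.

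All but 1 of the nuclear complex I messengers had lower TMM-normalized counts on days 5, 10 and 14 than in MEFs. The summed normalized count of the 37 genes was 23926, 31117, 10823, 6159 and 8361 on day 0 and days 2, 5, 10 and 14. The sum was thus highest on day 2, lowest on day 10 and partly higher again on day 14. As a share of all counts the subunits took 0.621%, 0.763%, 0.365%, 0.222% and 0.278% in the same order. The exception was Ndufs1, a core subunit that holds iron-sulfur clusters of the peripheral arm.

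**Figure D1:**
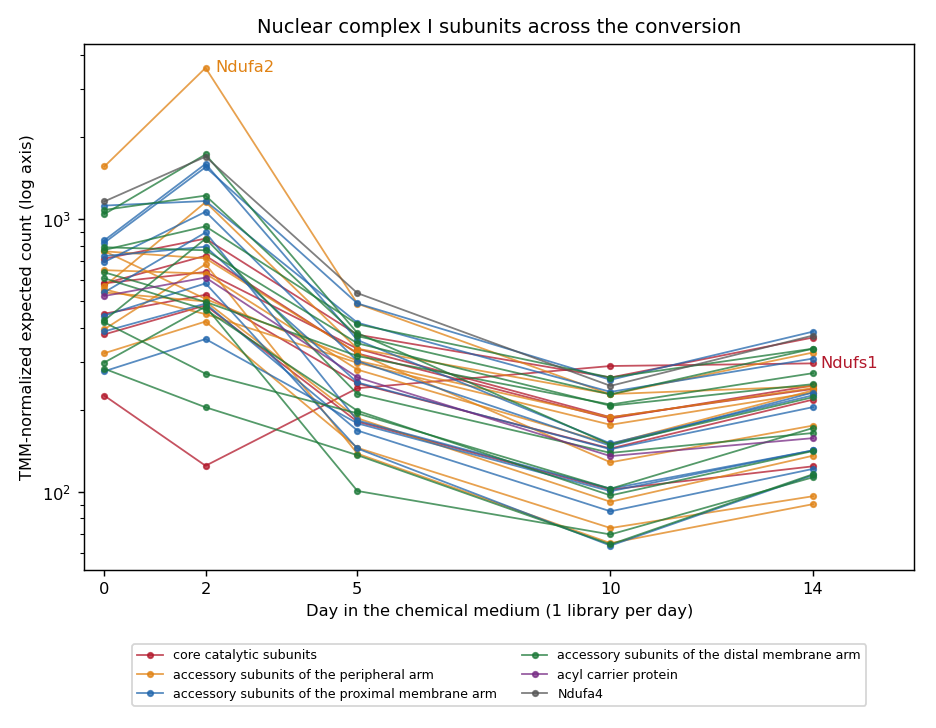
TMM-normalized expected counts of 36 of the nuclear complex I genes (log axis) against the day in the chemical medium, 1 library per day, coloured by the place of the subunit in the complex. For 35 of the 36 genes day 10 is lower than day 5, and all are higher on day 14 than on day 10, while Ndufs1 ends at 296 normalized counts from 226 on day 0.

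Levels of different genes were compared per length, as TPM. The effective lengths given with the data equalled the gene lengths, so that no correction of these short lengths for fragment size is seen. The median member had 283, 313, 226, 159 and 177 TPM on day 0 and days 2, 5, 10 and 14. Ndufa2, an accessory subunit with a thioredoxin-like fold at the tip of the peripheral arm, had the highest mean TPM, with 1006, 1976, 508, 321 and 377 TPM. Ndufs1 had the lowest mean, with 57.5, 37.9, 65.1, 101 and 84.8 TPM. The members, most of which are built into 1 complex, spanned a 17.5-fold range of TPM on day 0, a 52.1-fold range on day 2 and a 9.28-fold range on day 14. On day 10 the lowest member was Ndufa11 and the highest was Ndufa4, and Ndufs1 stood 9th from the bottom. The length that the files give Ndufa11, 2661 bases in every library, is longer than its longest transcript in GENCODE M21, 918 bases, and its TPM was computed with the deposited length.

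Promoters are shown for a few of the members. RefSeq (GRCm38.p6) gave a promoter, 250 bases before to 50 bases after the start, for 33 members. The cores of 5 motifs were searched on both strands, those of NRF1 (GCGCATGCG) and the ETS factors (CCGGAAG), which are known regulators of respiratory chain genes, and of YY1 (AAGATGG), the ERR receptors (AAGGTCA) and SP1 (GGGCGG). The 120 bases before the start are printed, 5′ to 3′ on the gene's strand with matches in capitals, for the 2 members with the NRF1 core, for a core subunit with the ETS core and for Ndufb7, the member with the lowest change on day 10.
Ndufa11, chr17:56717642-56717761, plus strand: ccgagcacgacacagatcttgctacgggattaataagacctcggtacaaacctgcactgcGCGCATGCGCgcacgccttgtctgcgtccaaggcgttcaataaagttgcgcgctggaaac
Ndufa8, chr2:36049339-36049458, minus strand: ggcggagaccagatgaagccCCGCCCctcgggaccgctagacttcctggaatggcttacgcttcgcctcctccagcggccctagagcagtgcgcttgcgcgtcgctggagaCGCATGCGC
Ndufs3, chr2:90904722-90904841, minus strand: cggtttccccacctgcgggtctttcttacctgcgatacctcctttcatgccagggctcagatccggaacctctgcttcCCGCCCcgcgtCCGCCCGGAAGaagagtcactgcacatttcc
Ndufb7, chr8:83566638-83566757, plus strand: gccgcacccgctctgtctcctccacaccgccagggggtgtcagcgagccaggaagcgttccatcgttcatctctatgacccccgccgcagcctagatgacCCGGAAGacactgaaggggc
The NRF1 core reads nearly the same on both strands, and in Ndufa11 matches of both strands overlap. In Ndufs3 an SP1 match and the ETS match overlap. The NRF1 core was found in 2 of the 33 members (6.06%), against 3.98% of the 10257 genes kept with a promoter. For the ETS core the numbers were 4 members (12.1%) against 19.4%, for SP1 15 members (45.5%) against 68.7%, and for ERR 3 members (9.09%) against 3.74%. The YY1 core was found in 7 members (21.2%) against 8.20%, and all 7 of its matches lay in the 50 bases after the start or reached into them. A match describes the letters only, and no motif was shared by the members as a group.

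On day 2 the subunits had not moved as a block. The median change was 0.24, with 25 of 37 members above their day 0 level, where 47.3% of all genes kept were, and the counting interval lay above 0 for 22, below 0 for 8 and over 0 for 7. Over 2-fold above day 0 were 2 of 37 members, while 15.2% of all genes kept were, and no member was over 2-fold below, against 13.1% of all genes kept and 9.49% of the 885 other genes of 568 to 963 bases, the middle range of the members' lengths. The medians of the role groups differed. All 9 accessory subunits of the proximal membrane arm were above day 0, with a median of 0.39, whereas 5 of 10 of the distal membrane arm and 4 of 9 of the peripheral arm were. With library totals 8 of the 9 were above day 0 and with TPM 7 of 9. The 2 genes over 2-fold above were Ndufa2, at 1.20 [1.10, 1.30], and Ndufv3, at 1.02 [0.86, 1.19], and Ndufs1 was the lowest, at −0.85 [−1.26, −0.46]. With TPM 20 members were above day 0 and none over 2-fold, so that the sign of single members on day 2 depended on the scale.

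On day 5 the median change was −1.15 and 24 members were over 2-fold below day 0, against 13.6% of all genes kept and 39.1% of the genes of 568 to 963 bases. None was over 2-fold above, while 20.2% of all genes kept were. On day 10 the median was −2.08, a 4.22-fold lower level, and 36 members were over 2-fold below day 0, against 22.3% of all genes kept and 63.8% of those of 568 to 963 bases, with 28.7% of all genes kept over 2-fold above. On day 14 the median was −1.60 and 33 members were over 2-fold below day 0, against 19.9% and 51.6%, with 24.5% of all genes kept over 2-fold above. The counting interval lay below 0 for the same 36 members on each of these days. These comparisons share the day 0 library. Between days 10 and 14 all 37 members were higher on day 14, where 51.6% of all genes kept were, with a median difference of 0.49 and an interval above 0 for 31. The 6 members whose interval included 0 were Ndufa5, Ndufab1, Ndufb5, Ndufs1, Ndufs8 and Ndufv3. In TPM, Ndufs1 (−0.25), Ndufab1 (−0.10), Ndufv3 (−0.054), Ndufb9 (−0.018) and Ndufs8 (−0.0056) were lower on day 14 than on day 10. The other members were higher in TPM too.

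The size of these changes depended on the scaling. In the TPM values the median of all genes kept lay 0.61, 1.09 and 0.78 above day 0 on days 5, 10 and 14, against 0.05, 0.14 and 0.07 with TMM. The members' medians in TPM were −0.44, −0.98 and −0.72, and 1, 18 and 10 members were over 2-fold below day 0. Relative to the median of all genes kept, the members lay at −1.05, −2.08 and −1.51 in TPM and at −1.19, −2.22 and −1.67 with TMM. In TPM 3 members were above day 0 on day 5, Ndufs1, Ndufc2 and Ndufv2, and Ndufs1 alone on days 10 and 14. Of all genes kept that changed over 2-fold, the share that was higher was 53.7%, 59.6%, 56.3% and 55.2% on days 2, 5, 10 and 14 with TMM, 48.3%, 79.1%, 73.1% and 70.4% with library totals, and 36.0%, 88.9%, 88.6% and 85.7% in TPM.

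Much of the members' lower level was shared with other genes as short as they are. Genes of equal length had medians of 0.21, −0.94, −1.69 and −1.21 on days 2, 5, 10 and 14, taken at the middle of the 37 members. The members' own difference from them had a median of 0.02, −0.31, −0.47 and −0.41, and 16, 29, 31 and 31 of 37 lay below. With only genes that had 10 or more counts in every library, this difference was −0.17, −0.26 and −0.25 on days 5, 10 and 14. Between days 10 and 14 the genes of equal length were also higher, by 0.44, and the members differed from them by 0.03. Short genes with high counts were lower than short genes with low counts. On day 10 the genes of 568 to 963 bases had a median of −0.40 where their mean normalized count was under 50, −1.52 from 50 to 200, −1.85 from 200 to 500 and −2.06 from 500 up, and 36 of the 37 members had a mean of 200 or more. The shares of these genes over 2-fold below day 0 on day 10 were 37.4%, 74.5%, 81.8% and 84.1% in the same order. Against genes of equal length whose mean count also lay within 2-fold, the members' median difference was 0.05, −0.060, −0.089 and −0.14 on days 2, 5, 10 and 14, with 17, 22, 19 and 24 of 37 below. As a group the subunits were thus within 0.14 of genes matched for both properties. Between 7 and 429 genes were compared per member there, and 3 members had fewer than 20. Some of the genes compared belonged to the other mitochondrial lists below, such as 7 of 25 for Ndufa2 and 2 of 429 for Ndufs1. The mean count also took in the later days, so that the level matched on was not independent of the changes.

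**Figure D2:**
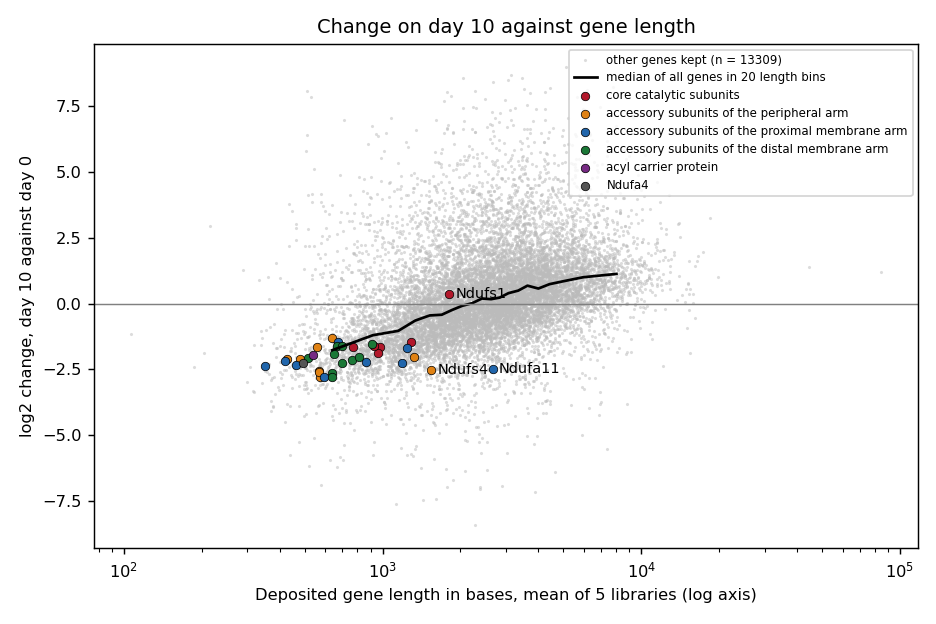
log2 change on day 10 against day 0 for every gene kept against its deposited length (log axis), with 36 complex I genes coloured by role and a line through the medians of 20 length bins. Most subunits lie among the short genes with low values, Ndufs1 lies above the line and Ndufs4 and Ndufa11 lie well below it.

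Single members stood farther from genes of equal length than the group. Ndufs4, an accessory subunit of the peripheral arm whose loss causes encephalopathy in mice, was 2.06 below them on day 10, Ndufa9 and Ndufa10 were each 1.33 below and Ndufa2 was 1.10 below. Against genes matched for level as well the differences were smaller, −1.71 for Ndufs4, −0.91 for Ndufa9, −0.83 for Ndufa10 and −0.74 for Ndufa2. The deposited length of Ndufa10 was 1347 bases on day 0 and 834 on day 10, so that its comparison rests on a mean of differing lengths. Ndufa11 was 2.68 below (2.18 below with level matched), but its deposited length sets it against genes of that length. Above genes of equal length on day 10 lay 6 members, Ndufs1 by 0.64, Ndufv3 by 0.47, Ndufc2 by 0.30, Ndufb5 by 0.16, Ndufb8 by 0.09 and Ndufa6 by 0.06. With level matched these 6 lay farther above, by 0.83, 0.89, 0.41, 0.33, 0.34 and 0.49 in the same order. In that comparison 19 of the 37 members lay below on day 10. The comparisons of Ndufs1 and Ndufv3 also rest on means of differing lengths. On day 0 and day 10 these were 1395 and 2264 bases for Ndufs1 and 592 and 743 for Ndufv3. Across the 37 members the change on day 10 had a Spearman correlation of 0.36 with length, and across all genes kept it had one of 0.44; the points share the same 2 libraries, and genes are not independent replicates.

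The 7 core catalytic subunits lay at a median of −1.62 on day 10, the smallest in size among the role groups of more than 1 gene, and 6 of 7 were over 2-fold below day 0. The core's median difference from genes of equal length, −0.47, was close to the −0.45 of the distal membrane arm. For the accessory subunits of the peripheral arm and for those of the proximal membrane arm it was −0.87. Ndufs1 differed from the other 6 core subunits. On day 0 and days 2, 5, 10 and 14 it had 228, 69, 274, 406 and 331 expected counts, or 226, 125, 240, 290 and 296 normalized counts. With TMM it was the lowest member relative to day 0 on day 2 and the highest on the 3 later days. In TPM its change on day 2 was −0.59, above the −0.83 of Ndufa9. With TMM the change of Ndufs1 was 0.09 [−0.17, 0.35] on day 5, 0.36 [0.12, 0.60] on day 10 and 0.39 [0.14, 0.64] on day 14. Under TMM, DESeq2 size factors, library totals and TPM alike it was above day 0 on days 5, 10 and 14. Its deposited length, which follows the estimated mixture of its transcripts, was 1395 bases on day 0, 990 on day 2 and between 2130 and 2264 later. Exons of Ndufs1 overlap those of Eef1b2 on the opposite strand, whose expected count was 8519 on day 0 and 1745 on day 14, and without strand in the counting reads of such a pair cannot be told apart.

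Ndufs7, which carries the last cluster before ubiquinone, had 450, 528, 250, 144 and 218 normalized counts on the 5 days, with −1.63 [−1.89, −1.40] on day 10. It was lowest on day 10. The flavoprotein Ndufv1, where NADH is oxidized, had 716, 848, 377, 263 and 368 normalized counts, with −1.44 [−1.63, −1.26] on day 10. Its partner Ndufv2, which holds an iron-sulfur cluster, had 582, 640, 335, 188 and 239, with −1.62 [−1.85, −1.42]. Both were highest on day 2 and lowest on day 10. Ndufs3 had 581, 735, 322, 186 and 246 normalized counts, with −1.64 [−1.86, −1.43] on day 10. The iron-sulfur subunit Ndufs8 had 378, 483, 181, 102 and 124, with −1.88 [−2.18, −1.61], the lowest change of the core.

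**Figure D3:**
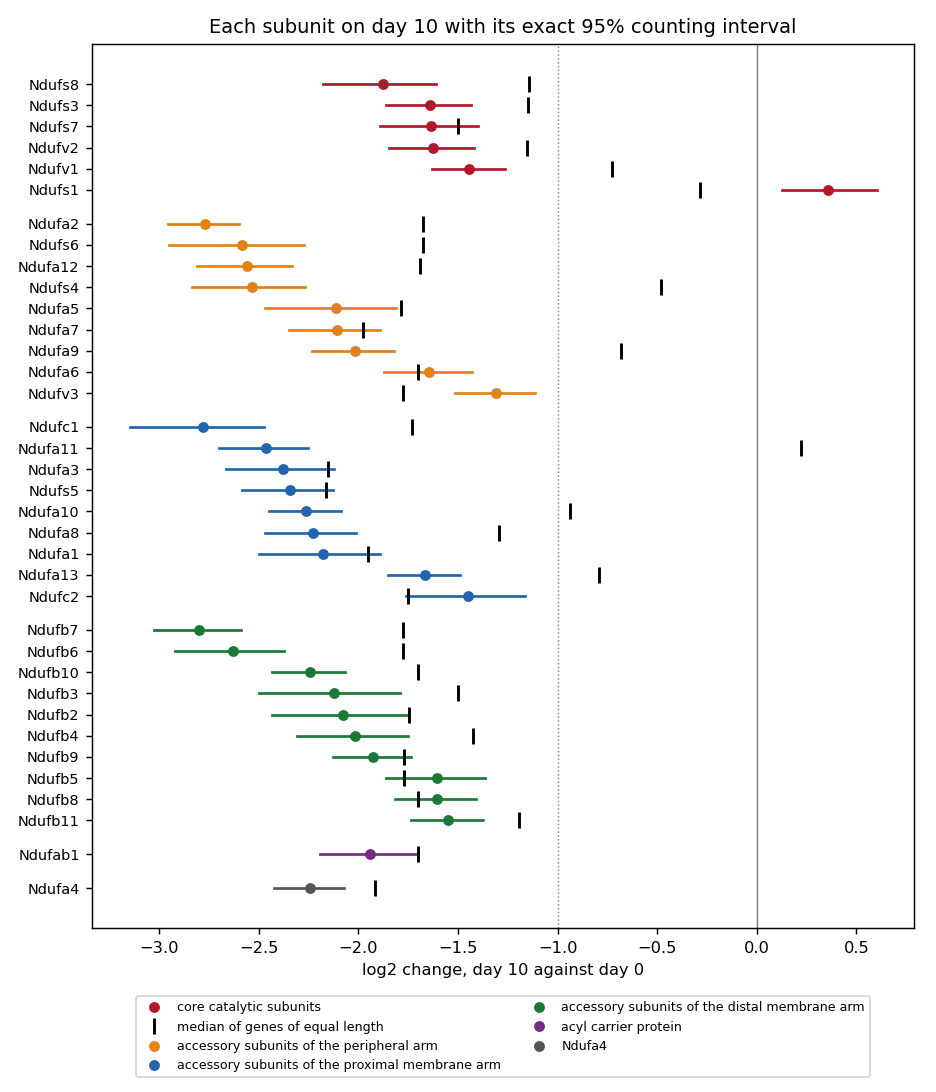
log2 change of 36 subunits on day 10 against day 0 (points) with exact 95% counting intervals (lines), grouped by role, and the median change of genes of equal length (black ticks). Only Ndufs1 lies above 0, 35 of the 36 points lie left of the dotted line at −1, and 30 points lie left of their tick.

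The 9 accessory subunits of the peripheral arm (Ndufv3, Ndufs4, Ndufs6, Ndufa2, Ndufa5, Ndufa6, Ndufa7, Ndufa9 and Ndufa12) had a median of −2.11 on day 10, and all 9 were over 2-fold below day 0. Ndufa2 had normalized counts of 1559, 3583, 490, 228 and 324 at the 5 time points, so that it had the highest change of all on day 2 and one of the lowest on day 10, at −2.77 [−2.95, −2.60]. The zinc-binding subunit Ndufs6 had 395, 684, 138, 65.0 and 90.3, with −2.58 [−2.95, −2.27]. Its exons overlap those of Mrpl36 on the opposite strand. At the other end was Ndufv3, a small subunit beside the flavoprotein, with 567, 1154, 335, 229 and 244 normalized counts and −1.31 [−1.51, −1.11] on day 10. The group thus held members with high day 2 values at both ends of its day 10 range.

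The 9 accessory subunits of the proximal membrane arm (Ndufa1, Ndufa3, Ndufa8, Ndufa10, Ndufa11, Ndufa13, Ndufc1, Ndufc2 and Ndufs5) had a median of −2.26 on day 10, with all 9 over 2-fold below day 0. Ndufc1 had 443, 582, 144, 63.6 and 115 normalized counts at the 5 time points, with −2.78 [−3.15, −2.47] on day 10. Ndufc2 had 277, 364, 179, 101 and 142, with −1.45 [−1.76, −1.16]. Although the symbols are alike, the 2 genes stood near opposite ends of the 37 on day 10. Ndufa11 and Ndufa8, whose promoters with the NRF1 core are printed above, were at −2.46 and −2.23.

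The 10 subunits of the distal membrane arm (Ndufb2 to Ndufb11) had a median of −2.05 on day 10 and ranged from −2.80 to −1.55. Ndufb7, a subunit on the side of the intermembrane space, had 1043, 1726, 382, 149 and 223 normalized counts at the 5 time points. Its change on day 10, −2.80 [−3.03, −2.59], a 6.95-fold lower level, was the lowest of the 37. Ndufb6 had 607, 466, 198, 97.2 and 141, with −2.63 [−2.92, −2.37], and its exons overlap those of Smim27 on the opposite strand. The highest of this arm was Ndufb11, at −1.55. In all, exons of 13 members overlapped those of another gene in the files, on the opposite strand in 12. For 21 members a library had an expected count not within 0.05 of a whole number, as happens where RSEM divides reads among genes.

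Ndufab1, the acyl carrier protein of mitochondrial fatty acid synthesis that is also built into complex I, had normalized counts of 523, 611, 263, 135 and 158 at the 5 time points, with −1.94 [−2.19, −1.70] on day 10. Ndufa4, named for complex I but now placed in complex IV, had 1161, 1693, 536, 245 and 375, with −2.24 [−2.42, −2.07]. Its change on day 10 lay close to the median of complex IV genes, −2.23, and inside the range of the complex I accessory subunits.

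Other nuclear genes of the respiratory chain and of mitochondria, apart from complex II, gave medians on day 10 close to that of complex I. On day 10 the median was −2.06 for the 9 genes of complex III, −2.23 for the 10 of complex IV, −2.12 for the 16 of complex V (the ATP synthase) and −1.88 for 77 mitochondrial ribosomal protein genes, where complex I had −2.08 and all genes kept had 0.14. Over 2-fold below day 0 were 8 of 9, 10 of 10, 15 of 16 and 74 of 77. Within complexes III to V the changes ranged from −3.29 for Uqcrq of complex III to −0.65 for Atp5a1, the alpha subunit of the ATP synthase, whose change in TPM was 0.43. Complex II, succinate dehydrogenase, had a median of −0.91 over 4 genes, and 2 of 4 were over 2-fold below day 0, but in TPM its median was 0.37 with 3 of 4 above day 0, whereas those of complexes III, IV and V were −0.94, −1.25 and −1.16. Complex II genes were longer, with a median of 1215 bases, and genes of their lengths had a median of −0.88, from which they differed by −0.075. The difference from genes of equal length was −0.52, −0.51 and −0.70 for complexes III, IV and V, −0.81 for the mitochondrial ribosomal proteins and −0.47 for complex I. The flavoprotein of complex II, Sdha, had normalized counts of 549, 494, 538, 624 and 639 at the 5 time points, a change of 0.18 on day 10. Its iron-sulfur subunit Sdhb had 979, 700, 520, 333 and 713, a change of −1.55. With TMM, DESeq2 size factors and library totals, Sdha and Ndufs1 were the 2 genes of complexes I to V above their day 0 level on day 10.

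**Figure D4:**
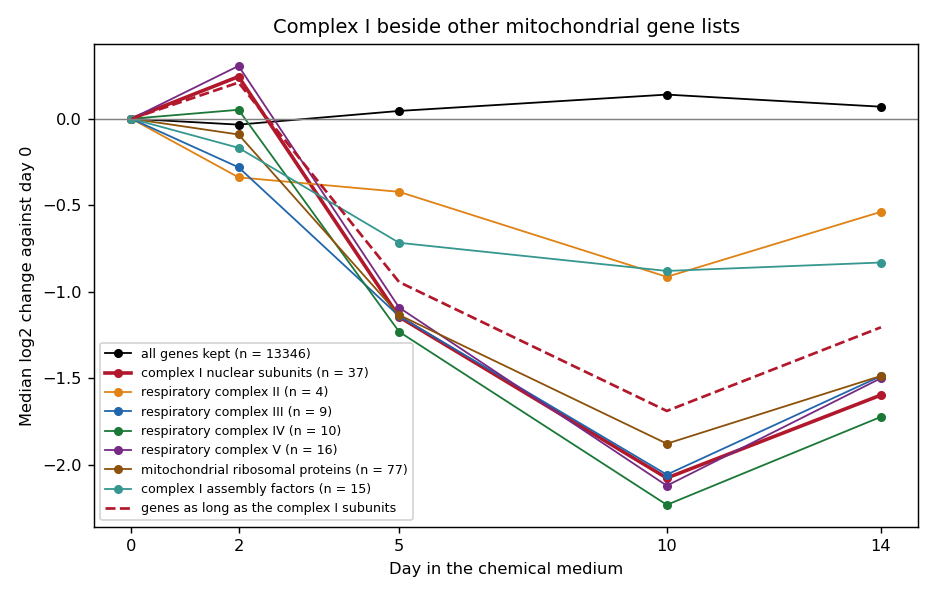
Median log2 change against day 0 (vertical axis) by day in the chemical medium for complex I, complexes II to V, mitochondrial ribosomal proteins, complex I assembly factors and all genes kept, with the medians of genes as long as the complex I subunits as a dashed line. On day 2 complexes I, III, IV and V lie at 0.24, −0.28, 0.05 and 0.31. From day 5 on these complexes run close together, and on day 10 they lie between −2.06 and −2.23. Complex II and the assembly factors, which are longer genes, lie higher on this scale from day 5 on.

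The 15 complex I assembly factors, which build the complex but leave it, had a median of −0.88 on day 10 and differed from genes of equal length by −0.60. Of the 15, 7 were over 2-fold below day 0 and 0 above, against 22.3% and 28.7% of all genes kept. Ndufaf2 had normalized counts of 129, 130, 56.9, 24.3 and 44.7 at the 5 time points, a change of −2.36 on day 10. Foxred1 had 78.2 on day 0 and 66.8 on day 10, a change of −0.22 that was 0.24 with library totals and 0.76 in TPM. Of 11 regulators of mitochondrial genes, 10 were kept, with a median of −0.29, which was 0.18 with library totals and 1.02 in TPM. Of these 10, 1 was over 2-fold below and 2 above, no more than the 22.3% and 28.7% of all genes kept. Nrf1, which encodes the factor of the NRF1 core, had 157, 97.6, 71.8, 80.0 and 85.8 normalized counts, and the receptor gene Esrra had 177, 220, 151, 83.5 and 124. Gabpa, which encodes a DNA-binding subunit of the ETS class, had 94.0, 81.4, 138, 250 and 178. On day 10 their changes were −0.97, −1.07 and 1.40, and in TPM −0.17, 0.15 and 2.59, so that the direction of Esrra depended on the scale.

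Markers of other cell types moved over the same days. All 10 fibroblast markers were detected in all libraries, with summed normalized counts between 51960 (day 2) and 107877 (day 14). On day 10, 6 of the 10 were above day 0 and 3 were over 2-fold below, against 22.3% of all genes kept. The 9 macrophage markers summed to 206, 1987, 3787, 2267 and 1732 at the 5 time points, and Cd5l and Ptprc were at 0 on day 0. The 8 Schwann cell and neural crest markers summed to 111, 204, 1153, 7087 and 9942, with Gjc3 at 0 on day 0. The 10 neuronal markers, with Rbfox3 at 0 in every library, summed to 822, 790, 843, 1060 and 2818, of which Gap43 was 2411 on day 14. The median change of the 8 neuronal markers kept was 1.94, 1.45 and 0.36 on days 5, 10 and 14. On each of these days 3 of the 8 were over 2-fold below day 0, against 13.6%, 22.3% and 19.9% of all genes kept. The 8 skeletal muscle markers summed to 647 on day 0 (Acta1 579), 122 on day 2, and 22.1 or less later. The part of these cells, and of the shift of the counts towards longer genes, in the values of the complex I genes was not tested.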

How the data were processed

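RNA of MEFs and of cells at 4 times of the conversion was sequenced from libraries of an Illumina TruSeq RNA kit that does not mark strand. Per the submitters' processing notes, reads were aligned with Bowtie to mm10 and quantified with RSEM; versions and annotation are not given in the sources used here. The authors deposited expected counts, which are RSEM's estimated reads per gene without scaling. They also deposited TPM values, scaled for length to 1000000 per library, and FPKM values, which were not used, and gene lengths for each library.

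Identifiers were matched to GENCODE M21 (same build), which named 27247 of 27729 genes. Expected counts were rounded for TMM library sizes only (edgeR 4.0.16, R 4.3.3) and divided by these sizes relative to their geometric mean. Changes were log2 ratios with a pseudocount of 1. A gene was kept with 10 counts in 1 or more libraries, and the threshold was 2-fold. Single-gene ratios carry exact 95% intervals (Clopper-Pearson, from rounded counts with no pseudocount). Reads without molecular identifiers are not independent molecules, so that the intervals cover counting error only. With 1 library per time point there was no test. Lengths were means over the 5 libraries. Alternatives were DESeq2 1.42.0 size factors, library totals, TPM, a pseudocount of 5, other filters, thresholds of 1.5-fold and 4-fold, wider length windows, matching on level, leaving out Ndufa4, and TMM without day 2, the last chosen after seeing the data. The scripts were tested on simulated data.

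Members and lists were chosen with earlier results of these data known. Every member is accounted for by role. Values on every day are given for the 7 core subunits, the 5 lowest and 5 highest changes on day 10 among members with 100 or more counts in 1 or more libraries, Ndufa4, Ndufab1 and the highest and lowest mean TPM. Of other lists the 2 lowest and 2 highest on day 10 could be named. Ndufa8, Ndufa9, Ndufa10, Ndufa11, Ndufs4, Ndufa6, Ndufb5, Ndufb8 and Ndufb11 and the marker genes were named after their values were seen. For 1 member no values of its own are reported here, and it was left out of the plots of single genes.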

Additional observations from a re-analysis of the deposited data

How the results depend on the processing

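No paired analysis was possible because each time point had 1 library and the labels give no replicate numbers. For the same reason no replicate could be left out. Of 117 values under alternatives, covering 13 results, 90 were counted as the same, 27 moved and 0 values over 0.1 in size reversed. The same meant within 1.5 times the value given and, for medians, within the counting interval of a typical member. For the day 2 difference from genes of equal length, 0.02, only the interval was required. This difference was −0.0015 with TPM, −0.0046 with a 25% length window, 0.03 with a filter in every library and 0.05 with level matched, all counted as the same. With library totals the members' median was 0.16, −0.77, −1.61 and −1.24 at the 4 later time points, and 11 members were over 2-fold below day 0 on day 5. With TPM the medians were 0.10, −0.44, −0.98 and −0.72, with 0.23 between days 10 and 14, and 1, 18 and 10 members were over 2-fold below on days 5, 10 and 14. Without a filter on counts the difference from genes of equal length was 0.24, −1.11, −1.90 and −1.42 on days 2, 5, 10 and 14, since genes near 0 counts then enter the comparison with changes near 0. With a filter in every library it was −0.17, −0.26 and −0.25 on days 5, 10 and 14. Against genes of equal length and level it was −0.060, −0.089 and −0.14 on days 5, 10 and 14. With a 1.5-fold threshold 2 members were below on day 2, and with a 4-fold threshold 0, 21 and 5 were on days 5, 10 and 14, as fewer values pass a higher threshold. Apart from the thresholds and the missing filter, the cause of these shifts was not tested. The differences from genes of equal length were −0.37, −0.57 and −0.52 on days 5, 10 and 14 with a pseudocount of 5. That alternative, DESeq2 size factors, a 25% length window, leaving out Ndufa4 and TMM without the day 2 library kept every result over 0.1 they were run on within 1.5 times. At 1 library per day the depth limits single members to the intervals given, and a difference between cultures cannot be seen.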
